A study of Oryza sativa with 3 samples.

Results

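Rice embryos of the cultivar Nipponbare were dissected from seeds at 0, 12 and 24 HAI (hours after imbibition), and their small RNAs of 18 to 30 nt were sequenced. The 98 sequences described here are the intergenic OsmiR of 24 nt that start with A. An OsmiR is a miRNA that was predicted from these 3 libraries and had no match among the known miRNAs. Members were the named OsmiR whose mature sequence is 24 nt long and begins with A and whose first listed position is annotated as intergenic. A list of 14 fixed names was left out, of which only 2 met these conditions. The members are 98 of 230 named OsmiR and of 289 named miRNAs in all. If every position of the first listed precursor must be intergenic, 97 remain, and OsmiR-208 drops out.

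All 3 groups were de-hulled seeds placed in distilled water in the dark, and differed only in time (0 HAI is the dry seed). There was 1 library per time point, made from the RNA of 4 plates mixed in equal amounts, and without replicates a change between libraries cannot be set against biological spread. The tables hold small RNAs alone, so the tissue label was not checked against embryo marker genes here. In such bulk RNA, fewer cells with a sequence and less of it per cell cannot be told apart.

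In plants, a miRNA is cut by a Dicer-like protein from an RNA that folds back on itself. The cut releases a duplex of the mature miRNA and the opposite strand, the miRNA*. The mature miRNA lies on the 5p or 3p arm of the hairpin, and the miRNA* on the other arm. Small RNAs of 24 nt in plants are mostly short interfering RNAs, made by DCL3 from double-stranded RNA of repeats and transposons. In Arabidopsis, AGO4 takes up 24 nt small RNAs that begin with A and guides DNA methylation with them. Rice DCL3 also makes a class of 24 nt miRNAs, called long miRNAs, which can act in the same way. None of these proteins was measured here.

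The sequences that carry the results are shown first, as DNA letters from 5′ to 3′. The 5 most abundant members come first, and none of them shared a run of 12 bases with another member. Capitals mark the seed, bases 2 to 8.
OsmiR-26: aGTAGAAAccgtctgagatttcga
OsmiR-86: aGTGGGATactgatgtcgaggtcg
OsmiR-96: aTTAAAGTtggacacggaaactca
OsmiR-217: aTTCTAGTacaacgaatctggact
OsmiR-219: aATGTATGacgctgttgactttta
OsmiR-160: aAGAAGAActttatgttggcactg
OsmiR-164: aGTAGAAAcaaaaataacaaattt
OsmiR-160 is shown for its rise with imbibition, and OsmiR-164 because it shares the seed of OsmiR-26. The 98 members had 82 different seeds. Of these, 14 seeds occurred in 2 or more members, and those covered 30 members, with at most 3 members per seed. Seeds were counted for the members only, so these counts are not shown to be particular to them.

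The largest set of related members is a group of 21 around the 11 letters CCGGGACTAAA, which are in capitals below and lie at different distances from the leading A.
OsmiR-113: aCCGGGACTAAAgatcgagctgat
OsmiR-188: aaCCGGGACTAAAaatgaacttta
OsmiR-187: acaaCCGGGACTAAAaatagatct
OsmiR-123: atcaaCCGGGACTAAAgatgctcc
OsmiR-91: atcaaCCGGGACTAAAaatgaact
OsmiR-37: accaatCCGGGACTAAAgatcgat
OsmiR-214: atcaccaaCCGGGACTAAAgatct
OsmiR-132: aataaCCGGGAGTAAAgatggctc
OsmiR-200: accaaCCGAGACTAAAgatggctc
OsmiR-75: attTTTAGTCCCGGattcgtagtc
OsmiR-132 differs from the motif by C7G and OsmiR-200 by G4A, with positions counted from the first base of the motif. OsmiR-75 is outside the group and carries the same letters read on the other strand, TTTAGTCCCGG.

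Smaller groups follow. Those shown, other than the pair OsmiR-81 and OsmiR-33, have precursors rich in A and T. Within each of the next groups, capitals mark the bases common to all of its members, shown or not.
OsmiR-155: ATtaaTATgAATGTGGaaAATaCT
OsmiR-218: ATaaaTATgAATGTGGaaAATgCT
OsmiR-2: ATctaTATaAATGTGGgcAATgCT
OsmiR-168: aAATATGagAAATgCTAGAATGac
OsmiR-14: AATATGggAAATaCTAGAATGact
OsmiR-17: attcgtAttgATGtTAATGAAtCT
OsmiR-208: AtatATGtTAATGAAtCTaggcac
OsmiR-202: ATTcATATTGATGtTgATGAATCT
OsmiR-106: aAAACaTCTTATAAtCTGAAAcgG
OsmiR-183: AAACaTCTTATAAtCTGAAAcgGa
OsmiR-81: ACTTATAtTTTTGTGAGAGGGACT
OsmiR-33: ACTTATAcTTTTGTGAGAGGGACT
OsmiR-155, OsmiR-218 and OsmiR-2 belong to 1 group, OsmiR-168 and OsmiR-14 to another, OsmiR-17 and OsmiR-208 to the next, and OsmiR-202 to one more. OsmiR-106 and OsmiR-183 are the same run of 23 bases read with a shift of 1 base, and OsmiR-81 and OsmiR-33 differ at 1 base of 24. How reads were assigned between such close sequences is not given in the sources used here, so the split of reads between them is uncertain.

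The members were a small part of the miRNA reads. In the 0, 12 and 24 HAI libraries their summed reads were 4214, 7802 and 7123. A TPM is the reads of a sequence over the reads mapped to the genome, times 1e+06, and these sums were 219.4, 349.4 and 410.3 TPM. The mapped reads numbered 19203513, 22332607 and 17359816, so 1 read was worth 0.0521, 0.0448 and 0.0576 TPM. The members held 26.3%, 23.2% and 25.4% of all OsmiR reads at 0, 12 and 24 HAI. The Wilson 95% intervals of these shares were 25.6% to 27.0%, 22.8% to 23.7% and 24.9% to 25.9%. The members held 1.48%, 1.23% and 1.21% of all named miRNA reads.

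Abundance was concentrated in a few members. OsmiR-26, OsmiR-86 and OsmiR-96 together held 40.1%, 39.1% and 39.0% of the member reads at 0, 12 and 24 HAI, and the 10 most abundant held 59.7%, 58.9% and 60.6%. The median member had 66.5 reads over the 3 libraries, against 63 for all OsmiR and 94 for all named miRNAs. Totals ran from 11 to 3597 reads, and 38 members had at least 100 reads. At 0 HAI 36 members had under 10 reads, against 21 and 19 at 12 and 24 HAI. All 98 were detected at 12 and 24 HAI and 95 at 0 HAI.

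**Figure D1:**
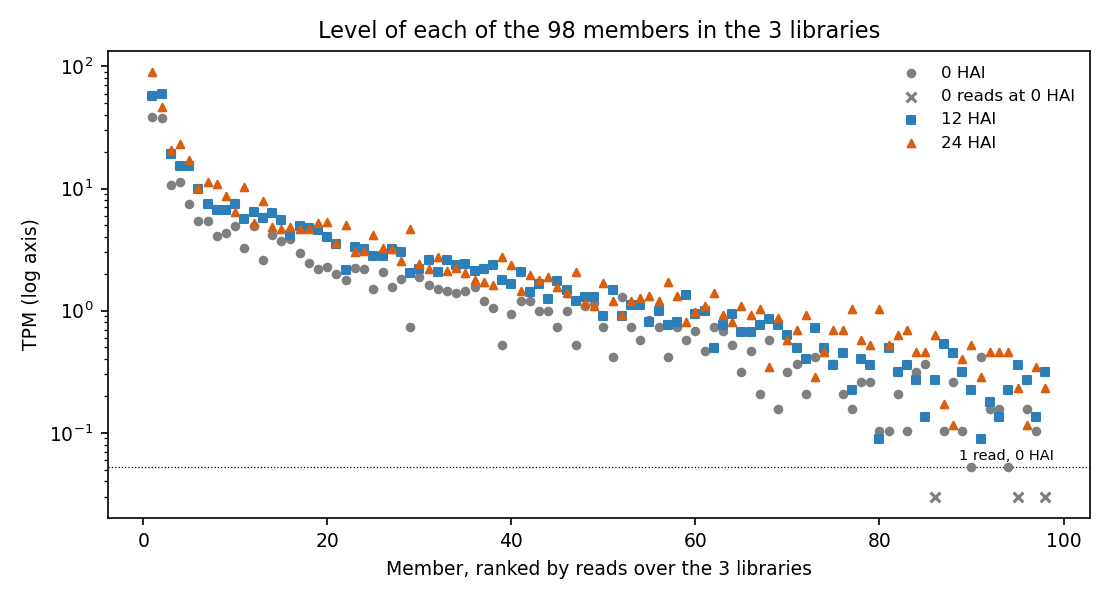
TPM of each of the 98 members (log axis) in the libraries of 0, 12 and 24 HAI, ranked by reads over the 3 libraries; crosses at the foot are the 3 members with 0 reads at 0 HAI and the dotted line is the worth of 1 read at 0 HAI. The points of 0 HAI are the lowest of the 3 for 83 members, a count not made for the other named miRNAs. Levels fall from 90.0 TPM for OsmiR-26 at 24 HAI to about the worth of a few reads.

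Most members were lowest in the dry seed. The 0 HAI library held the lowest TPM for 83 members, 12 HAI for 9 and 24 HAI for 6. The highest TPM was at 24 HAI in 62 members (63.3%, against 62.3% of all 289 named miRNAs), at 12 HAI in 34 (34.7%, against 34.6%) and at 0 HAI in 2 (2.04%, against 3.11%). TPM was higher at each step in 55 members and lower at each step in 0. The lowest library and the steps were counted for the members only, so these counts are not shown to be particular to them. A ratio of 24 to 0 HAI over 1 was about as common in the members (91.8%) as in all 289 named miRNAs (91.3%). For 12 over 0 HAI the shares were 90.8% of the members and 91.3% of 288 named miRNAs. The members highest at 0 HAI were OsmiR-177, with 25, 20 and 16 reads, and OsmiR-116, with 8, 2 and 5 reads.

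From 0 to 24 HAI the summed TPM of the members was 1.87-fold higher (exact conditional 95% limits 1.80 to 1.94). These limits, and all limits given for ratios, cover counting error only, and PCR copies are not independent molecules. The same ratio was 1.96 for the other OsmiR (1.91 to 2.00) and 2.29 for all named miRNAs. From 0 to 12 HAI the members rose 1.59-fold (1.53 to 1.65), against 1.91 for all named miRNAs. From 12 to 24 HAI the ratio was 1.17 (1.14 to 1.21), against 1.20. The 3 pairs share libraries and are not independent of each other.

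The single members are set beside all named miRNAs in the same libraries, without a test. A ratio over 2 between 24 and 0 HAI was found for 41 of 98 members (41.8%), against 49.5% of all 289 named miRNAs. A ratio under 0.5 was found for 1 member, against 2.42%. The median ratio was 1.88 for the members and 1.99 for all named miRNAs. A ratio over 1 was found for 90 members, against 91.3%. Among the 34 OsmiR of 24 nt starting with A inside genes 14 passed (41.2%), and among the 32 intergenic ones of 24 nt with another first base 13 passed (40.6%). The 95% limits lay above 1 for 44 members (background 56.4%), above 2 for 8 (background 20.4%), below 1 for 0 (background 1.73%) and below 0.5 for 0 (background 1.04%). Those 8 were OsmiR-10, OsmiR-26, OsmiR-75, OsmiR-81, OsmiR-91, OsmiR-113, OsmiR-160 and OsmiR-231.

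The direction of these ratios depended on the denominator. With the summed reads of all named miRNAs as the denominator, the median log2 ratio of all named miRNAs moved from 0.99 to -0.20 and that of the members from 0.91 to -0.29. Relative to the median of all named miRNAs, which no such scaling changes, the median member stood at 0.944-fold between 24 and 0 HAI, 0.936-fold between 12 and 0 HAI and 1.02-fold between 24 and 12 HAI. In that relative sense 41 of 98 members were above the median of all between 24 and 0 HAI. Every rise given below is in TPM.

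**Figure D2:**
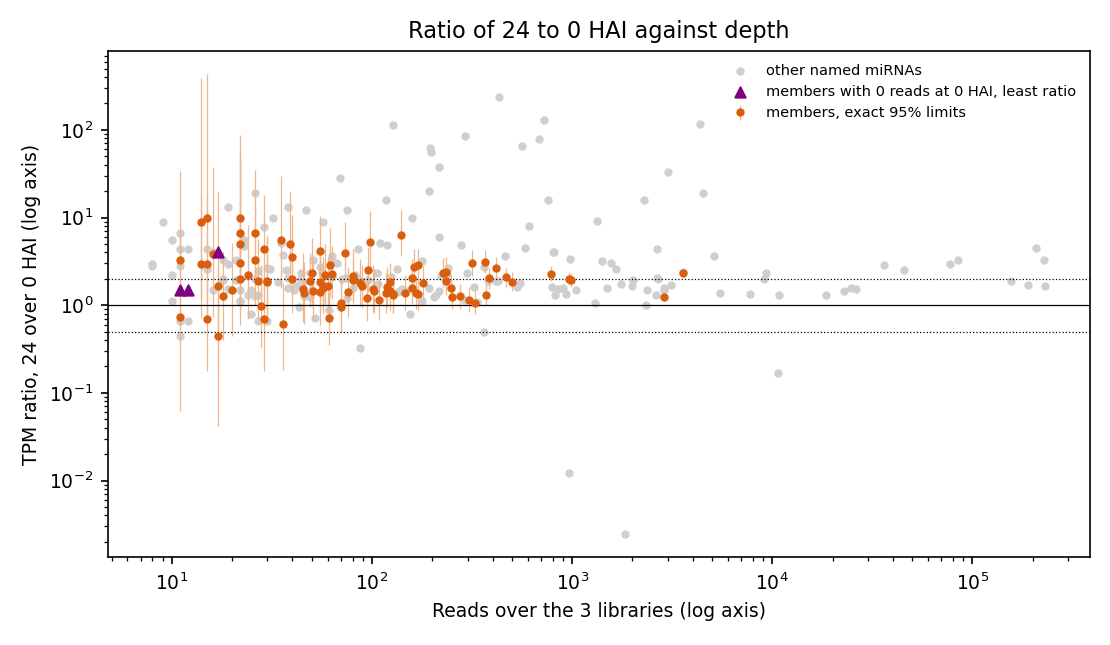
TPM ratio of 24 over 0 HAI against reads over the 3 libraries, both on log axes, for the members (orange, bars are exact 95% limits) and the other named miRNAs (grey); triangles are the 3 members with 0 reads at 0 HAI, drawn at the least ratio that 3 reads allow, and lines mark ratios of 0.5, 1 and 2. Members with at least 100 reads all lie above 1, as do 95.7% of all named miRNAs of that depth, and the spread widens below 100 reads.

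The ratios spread more widely among members of low depth. All 38 members with at least 100 reads had a ratio over 1, against 95.7% of all 141 named miRNAs with at least 100 reads. A ratio over 2 was found for 14 of the 38 (36.8%, against 46.8% of the 141). The median was 1.70 for the 38 and 1.91 for the 141. The limits lay above 1 for 22 of the 38 (57.9%, against 76.6% of the 141) and above 2 for 5 (13.2%, against 33.3%). The ratios of all 98 members ran from 0.442 to 9.96. Both ends came from shallow members. OsmiR-56 had 5, 10 and 2 reads at 0, 12 and 24 HAI and a ratio of 0.442 (0.0421 to 2.70), so its fall is within counting error. OsmiR-113 had 2, 2 and 18 reads and a ratio of 9.96 (2.38 to 88.5), the only member whose limits for 24 over 12 HAI lay above 2.

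OsmiR-26 was the most abundant member at 24 HAI, with 744, 1290 and 1563 reads at 0, 12 and 24 HAI, or 38.7, 57.8 and 90.0 TPM. It rose at each step, 1.49-fold (1.36 to 1.63) to 12 HAI and 1.56-fold (1.45 to 1.68) from 12 to 24 HAI. OsmiR-86 was about as abundant in the dry seed, with 725, 1338 and 814 reads or 37.8, 59.9 and 46.9 TPM. It peaked at 12 HAI, where it was 1.59-fold above 0 HAI (1.45 to 1.74), and its ratio of 24 to 12 HAI was 0.783 (0.716 to 0.855). It was the only member whose limits for 24 over 12 HAI lay below 1 (background 10.4%), and the only one that had a step above 1 and then a step below 1 beyond its limits.

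Of the next members in abundance, some rose by 12 HAI and then had a ratio near 1, and others rose at both steps. OsmiR-96 had 204, 425 and 357 reads, or 10.6, 19.0 and 20.6 TPM, and its ratio of 24 to 12 HAI was 1.08 (0.936 to 1.25). OsmiR-219 had 144, 343 and 299 reads, or 7.50, 15.4 and 17.2 TPM, and was 2.05-fold higher at 12 than at 0 HAI (1.68 to 2.51), with a ratio of 1.12 afterwards (0.957 to 1.31). OsmiR-83, with 104, 223 and 175 reads, had a ratio of 1.01 between 24 and 12 HAI (0.823 to 1.24). By contrast OsmiR-217, with 219, 342 and 399 reads, rose 1.50-fold from 12 to 24 HAI (1.30 to 1.74). So did OsmiR-187, with 104, 168 and 195 reads (1.49, 1.21 to 1.85), and OsmiR-91, with 78, 150 and 188 reads (1.61, 1.29 to 2.01). OsmiR-123, with 83, 150 and 152 reads, was 2.03-fold higher at 24 than at 0 HAI (1.54 to 2.68). OsmiR-17, with 94, 167 and 112 reads, was highest at 12 HAI and its ratio of 24 to 0 HAI was 1.32 (0.993 to 1.75).

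Among members with at least 100 reads, the highest ratio of 24 to 0 HAI was that of OsmiR-160, with 14, 45 and 81 reads or 0.729, 2.01 and 4.67 TPM. It rose at each step and 6.40-fold in all (3.60 to 12.2). Next came OsmiR-81, with 63, 126 and 177 reads and a ratio of 3.11 (2.32 to 4.21), and OsmiR-231, with 50, 129 and 137 reads and a ratio of 3.03 (2.18 to 4.28). OsmiR-28, with 34, 48 and 88 reads and a ratio of 2.86 (1.91 to 4.39), had most of its rise after 12 HAI, 2.36-fold (1.64 to 3.43). OsmiR-134, with 29, 62 and 72 reads, had a ratio of 2.75 (1.76 to 4.38). The limits of all 5 overlap, and the differences between them were not tested.

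At the other end, 4 members with at least 100 reads were near their dry-seed level at 24 HAI. OsmiR-146 had 94, 143 and 91 reads and a ratio of 1.07 (0.794 to 1.44). OsmiR-92 had 30, 47 and 31 reads (1.14, 0.669 to 1.95), OsmiR-145 had 80, 140 and 84 (1.16, 0.845 to 1.60) and OsmiR-106 had 74, 93 and 84 (1.26, 0.908 to 1.74). OsmiR-146, OsmiR-92 and OsmiR-145 were highest at 12 HAI, and for all 4 the limits include 1. OsmiR-86 is the fifth of this set, at 1.24 (1.12 to 1.37).

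The 3 members with 0 reads at 0 HAI were OsmiR-10 (0, 6 and 11 reads), OsmiR-46 (0, 7 and 4) and OsmiR-142 (0, 8 and 4). With 0 reads observed, a true level of up to 3 reads is possible, which is 0.156 TPM at 0 HAI. With that floor in place of the 0 HAI count, the TPM ratio of 24 to 0 HAI was at least 4.06 for OsmiR-10 and at least 1.47 for OsmiR-46 and OsmiR-142, before the counting error at 24 HAI. The exact lower 95% limits, which include that error, were 2.78 for OsmiR-10 and 0.730 for the other two, so for those a ratio of 1 is within the limits.

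From 0 to 12 HAI, 25 members had a ratio over 2 (background 37.5%) and 2 a ratio under 0.5 (background 1.74%). The limits lay above 1 for 44 members (background 53.1%) and above 2 for 0 (background 12.5%). They lay below 1 for 0 members (background 0.694%) and below 0.5 for 0 (background 0.694%), and 89 had a ratio over 1 (background 91.3%). From 12 to 24 HAI, 16 members had a ratio over 2 (background 13.8%) and 5 a ratio under 0.5 (background 5.19%). The limits lay above 1 for 16 members (background 22.5%), above 2 for 1 (background 4.15%) and below 0.5 for 0 (background 1.38%), and 64 had a ratio over 1 (background 63.7%). Of the members under 0.5 in any pair, OsmiR-214 was the only one with at least 30 reads. Its reads were 11, 19 and 6, and its ratio of 24 to 12 HAI was 0.406 (0.133 to 1.06), which includes 1.

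Many members resembled each other beyond the length and leading A that the rule asked for. Other miRNAs were not joined in this way, so such sharing is not shown to be particular to the members. When members with a common run of 12 bases were joined, 51 of 98 fell into 9 groups and 47 stood alone. The 47 held 72.0% of the member reads, with a median of 98 reads against 55 for the grouped members. A match of letters is a description of the listed sequences. No repeat annotation of the genome was used, so the groups carry no element name.

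The group of 21 around CCGGGACTAAA, led by OsmiR-187, was the largest and held 11.2% of the member reads. Its 11 letters were found after the group had been formed. They were in 19 members, in 1 of the 91 other named miRNAs of 24 nt (1.10%) and in 23 of all 289 named miRNAs (7.96%). The motif began at base 6 in 10 members of the group, at base 9 in 6 and at base 2, 3, 5 or 7 in the rest, so related sequences entered the list through different A starts. The 2 members with 1 altered letter, OsmiR-132 and OsmiR-200, are counted in these starts. Among the first listed precursors of the 98 members, 20 held the motif, 18 held it on the other strand and 16 held both, against 5, 5 and 3 of the 132 other OsmiR. The 21 members lay on 9 chromosomes, and 11 were 5p and 10 were 3p.

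This group had 466, 800 and 886 reads at 0, 12 and 24 HAI, or 24.3, 35.8 and 51.0 TPM. It rose 1.48-fold (1.32 to 1.66) to 12 HAI and 1.42-fold (1.29 to 1.57) from 12 to 24 HAI, and 2.10-fold (1.88 to 2.36) in all. The other 77 members rose 1.84-fold (1.77 to 1.92) in all. A ratio over 2 between 24 and 0 HAI was found for 12 of 21 (57.1%), against 37.7% of the other members and 49.5% of all named miRNAs. In 17 of 21 the highest TPM was at 24 HAI, against 45 of the other 77. Within the group the ratio ran from 0.603 for OsmiR-214 to 9.96 for OsmiR-113. OsmiR-143 had 8, 17 and 30 reads and a ratio of 4.15 (1.86 to 10.5). OsmiR-177 was the one that was highest at 0 HAI, but the limits of its ratio, 0.708 (0.353 to 1.38), include 1. OsmiR-75, with the motif on the other strand, had 10, 40 and 48 reads and rose 5.31-fold (2.65 to 11.8).

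In the next 3 groups by size, all rich in A and T, the reads rose before 12 HAI. The 7 members around OsmiR-155, all 3p, had 79, 152 and 122 reads and a ratio of 24 to 0 HAI of 1.71 (1.28 to 2.30). The 5 around OsmiR-168, all 3p, stood at 4.79, 8.87 and 8.35 TPM with a ratio of 1.74 (1.33 to 2.29). The 5 around OsmiR-17, all 5p, had 137, 222 and 170 reads and a ratio of 1.37 (1.09 to 1.73). In these 3 groups the ratios of 24 to 12 HAI were 1.03, 0.942 and 0.985, and the limits of each include 1. The 4 members around OsmiR-106, all 3p, had 194, 305 and 246 reads and a ratio of 1.40 (1.16 to 1.70). The 3 around OsmiR-202, all 5p, had 57, 108 and 99 reads (1.92, 1.37 to 2.71). The pair OsmiR-81 and OsmiR-33 had 107, 216 and 270 reads and rose 2.79-fold (2.22 to 3.53).

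**Figure D3:**
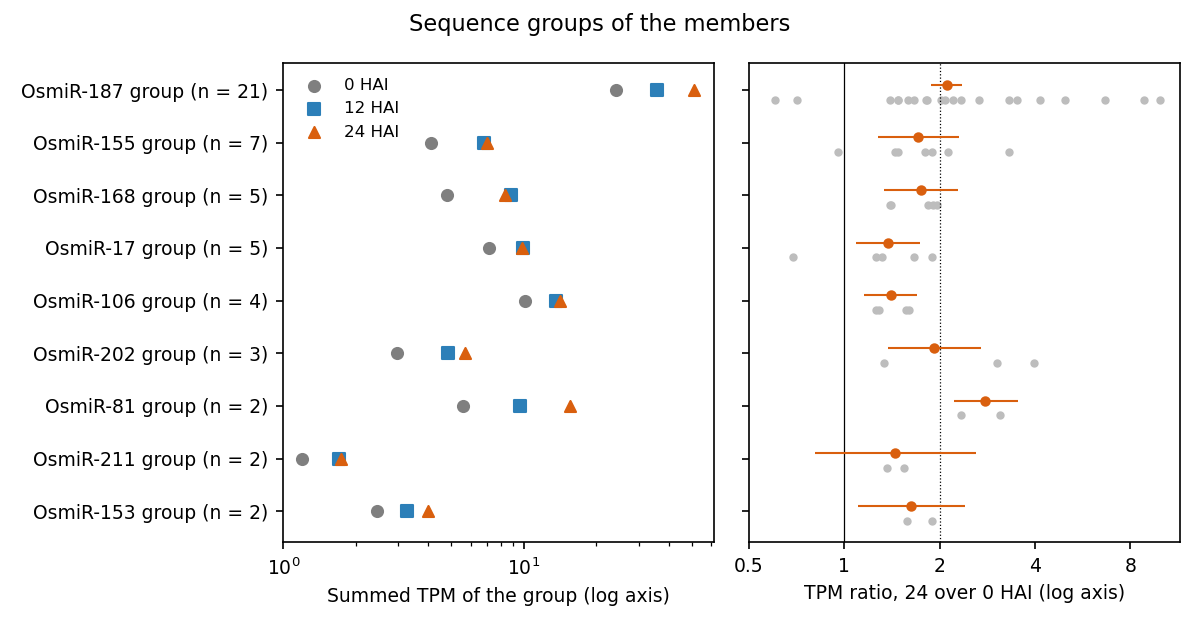
The 9 sequence groups, named by their most abundant member with the number of members, with the summed TPM in each library on a log axis (left) and the TPM ratio of 24 over 0 HAI on a log axis (right; orange, summed reads with exact 95% limits; grey, single members). The group of 21 led by OsmiR-187 is the most abundant, and the pair led by OsmiR-81 has the highest summed ratio, 2.79.

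Joining members by their precursors, with a common run of 20 bases on either strand, placed several of these groups in 1 family of hairpins. It had 25 members and took in the groups of OsmiR-155, OsmiR-168, OsmiR-17, OsmiR-202 and OsmiR-211, with 16 mature sequences listed as 3p and 9 as 5p. The precursors of OsmiR-218 and OsmiR-17 show both arms, with the mature sequence in capitals.
OsmiR-218, chr2:16828102-16828189, minus strand: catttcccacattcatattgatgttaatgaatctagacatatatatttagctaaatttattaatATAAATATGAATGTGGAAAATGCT
OsmiR-17, chr1:31854783-31854850, plus strand: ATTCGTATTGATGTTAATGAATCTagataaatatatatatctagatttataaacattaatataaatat
All coordinates are those listed in the table, on the rice assembly MSU 7.0. This family had 426, 793 and 626 reads, or 22.2, 35.5 and 36.1 TPM, and a ratio of 24 to 0 HAI of 1.63 (1.43 to 1.84). Its precursors held 14.19% to 30.68% G+C, with a median of 22.7%.

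A second family had 20 members, namely 19 of the group of 21 and OsmiR-75. OsmiR-123 and OsmiR-113, in which the motif begins at base 6 and base 2 of the mature sequence, are shown as examples.
OsmiR-123, chr5:15029246-15029294, plus strand: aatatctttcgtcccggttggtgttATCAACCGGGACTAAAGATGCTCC
OsmiR-113, chr5:1777985-1778041, minus strand: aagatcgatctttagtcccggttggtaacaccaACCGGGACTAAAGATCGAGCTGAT
It had 364, 655 and 709 reads, or 19.0, 29.3 and 40.8 TPM, and a ratio of 2.15 (1.90 to 2.45). Its precursors held 38.18% to 57.58% G+C, with a median of 47.3%. A further family of 7 members, with OsmiR-106 and OsmiR-183, had precursors of 163 to 248 nt and a ratio of 1.47 (1.27 to 1.70). The 2 larger families thus differed in summed ratio beyond counting error, since the limits of 1.63 and 2.15 do not overlap, but each rests on 1 library per time point. The 40 members in no such family held 66.9% of the member reads.

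The 2 most abundant members and OsmiR-160 lie in none of these families. OsmiR-26 lies in a hairpin of 53 nt, OsmiR-86 in one of 100 nt and OsmiR-160 in one of 135 nt.
OsmiR-26, chr5:5418767-5418819, plus strand: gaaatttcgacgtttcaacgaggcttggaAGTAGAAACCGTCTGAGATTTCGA
OsmiR-86, chr7:9122681-9122780, plus strand: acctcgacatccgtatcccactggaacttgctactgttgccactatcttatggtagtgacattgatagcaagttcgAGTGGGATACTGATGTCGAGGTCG
OsmiR-160, chr3:23382980-23383114, minus strand: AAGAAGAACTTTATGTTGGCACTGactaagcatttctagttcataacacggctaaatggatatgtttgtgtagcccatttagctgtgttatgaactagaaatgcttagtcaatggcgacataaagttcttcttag
OsmiR-26 and OsmiR-86 have a listed miRNA* and OsmiR-160 has none. OsmiR-26 was listed at 2 positions and OsmiR-86 at 5, OsmiR-160 at 1.

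In all, the members had 150 listed positions in 135 precursors. Of the 98, 71 had 1 position and 27 had 2 or more (27.6%). The share was 19.7% for all other OsmiR, 11.8% for those of 24 nt starting with A inside genes and 40.6% for intergenic ones of 24 nt with another first base. The 11 members with at least 3 positions were led by OsmiR-17 with 9, then OsmiR-86 and OsmiR-94 with 5 each. Reads cannot be divided between the positions of 1 sequence. For 6 members (OsmiR-94, OsmiR-106, OsmiR-146, OsmiR-155, OsmiR-202 and OsmiR-208) 7 further positions lay in genes. First positions were on all 12 chromosomes, most on chromosome 1 (17) and fewest on chromosome 3 (4). Members were rarely neighbours. The only pair within 10000 bases was OsmiR-114 and OsmiR-220 on chromosome 6, on the same strand and 4211 bases apart. OsmiR-114 had 1, 5 and 9 reads and OsmiR-220 had 42, 102 and 90.

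A miRNA* was listed for 35 of the 98 members (35.7%). It was listed for 22 of the 132 other OsmiR (16.7%), for 4 of 34 that start with A inside genes (11.8%) and for 6 of 32 intergenic ones of 24 nt with another first base (18.8%). The members with a miRNA* had a median of 57 reads, against 76 for those without. Their median ratio of 24 to 0 HAI was 1.90, against 1.86. Their precursors had a median G+C of 36%, against 26.9%. By arm, 53 members were 3p and 45 were 5p, with median ratios of 1.80 and 2.21.

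Precursor G+C of the members had a median of 29.0%, with 51 of 98 under 30% and 22 over 45%. The median was 35.5% for the other OsmiR and 30.7% for those starting with A inside genes, but 28.3% for intergenic ones of 24 nt with another first base. The 22 over 45% included 15 of the group of 21. The lowest G+C was that of OsmiR-14 (14.19%), whose hairpin of 155 nt contains a long run of alternating T and A. The highest was that of OsmiR-28 (59.68%). Lengths ran from 49 nt to 266 nt for OsmiR-105, with a median of 86.5 nt. In 11 members, all with 2 or more precursors, the listed G+C differed by over 0.05 percentage points from that of the first precursor sequence. It was that of another listed precursor of the same member, such as 22.06% for OsmiR-17, whose first precursor sequence has 14.7%. With G+C taken from the sequences the median was 28.4%.

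Folding is given in the table as MFE, the minimum free energy in kcal/mol, and as MFEI, which is the MFE scaled to 100 nt and divided by the percent of G+C. Member MFE ran from -178.7 to -11.1 kcal/mol, with a median of -41.4. The median MFEI was 1.44, against 1.23 for the other OsmiR, 1.38 for those starting with A inside genes and 1.22 for intergenic ones with another first base. The MFEI rises as G+C falls at equal MFE, and the highest value, 3.54, was that of OsmiR-14. An MFEI of 0.85 or less was listed for 3 members, OsmiR-103 (0.444), OsmiR-26 (0.704) and OsmiR-152 (0.736). All 3 had a listed miRNA*, which the study's prediction criteria required below that limit, so this is no finding.

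**Figure D4:**
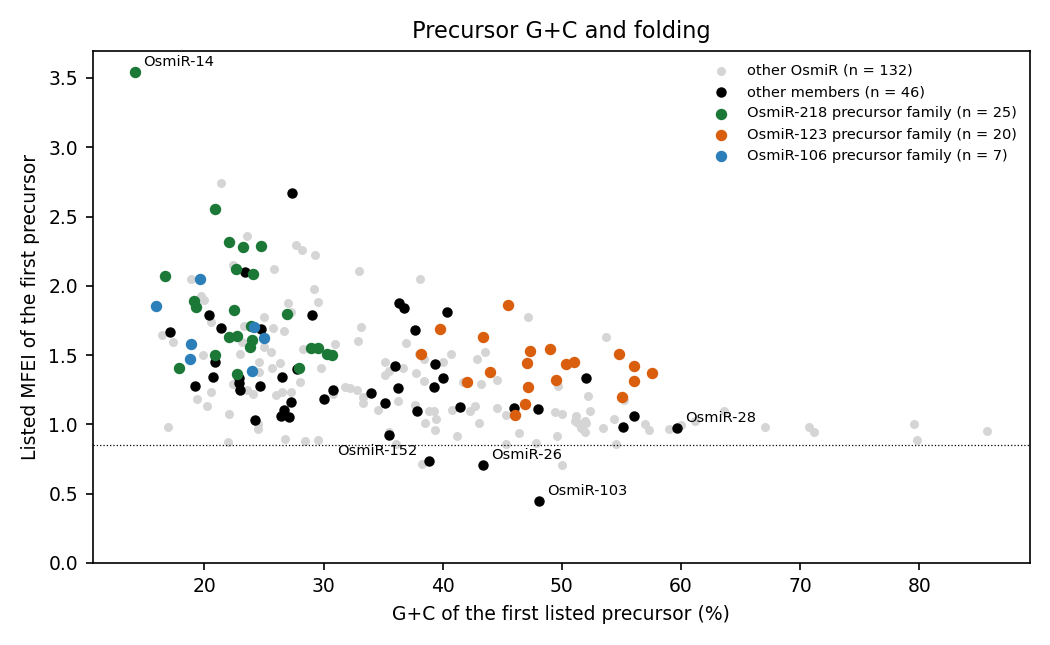
Listed MFEI against listed G+C, from the row of the first precursor, for the 98 members and the 132 other OsmiR (grey), with the 3 largest precursor families of the members in colour and an MFEI of 0.85 as a dotted line. For 11 members the listed G+C is that of another precursor of the same member. The OsmiR-218 family lies between 14.19% and 30.68% G+C, the OsmiR-123 family between 38.18% and 57.58%, and 3 members lie under 0.85.

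The listed precursors were refolded with RNAfold. The mature sequence was at an end of its precursor in 98 of 98 members and on the listed arm in 98 of 98. A median of 21 of its 24 bases were paired, with at least 18 in 91 members. A single hairpin loop was found in 97 members, OsmiR-62 having 2. The study kept only precursors that fold back, so these counts were set at least in part by the prediction and are no finding. The median number of paired bases was 21 with and without a listed miRNA*. OsmiR-103, with 21, 29 and 20 reads and the lowest MFEI, was the only member whose mature sequence paired partly with itself.
OsmiR-103, chr12:18184139-18184190, plus strand: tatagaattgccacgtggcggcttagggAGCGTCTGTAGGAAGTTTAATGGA
In the mature sequence, in capitals, 14 bases were paired in all, and its ratio of 24 to 0 HAI was 1.05 (0.542 to 2.04). The RNAfold energy was within 5 kcal/mol of the listed MFE in 93 members. Of the 5 beyond that, 4 had a listed length that is not that of the listed sequence, and the other was OsmiR-86 (-66.1 against a listed -53.2 kcal/mol). In all 5 the listed MFE was within 5 kcal/mol of the RNAfold energy of another listed precursor of the same member. For OsmiR-86 that energy was -53.7 kcal/mol.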

How the data were processed

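The authors filtered the reads, kept 18 to 30 nt, mapped them with Bowtie to MSU 7.0, removed structural RNAs and predicted OsmiR. The read counts per mature sequence were deposited without normalization. The deposited TPM values equalled counts over genome-mapped reads, times 1e+06, in all 407 rows (largest difference 4.99e-07). The percent of G+C and the folding scores (MFE, MFEI, from Mfold 3.2) were made by the authors. Each mature sequence was counted once, with its first listed precursor. Of the table of known miRNAs, deposited in 2 copies, 1 was read. A sequence without a name, with 2 rows, was left out.

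Members, lists and named miRNAs were chosen with earlier results of these data known. With 1 library per time point no test was run. A ratio over 2 or under 0.5 was the call, with exact conditional 95% limits. A count of 0 was given a floor of 3 reads. Named were the 10 most abundant members, the 5 highest and lowest ratios among those with at least 100 reads, members without reads in a library, falls with at least 30 reads, an MFEI of 0.85 or less, extremes of the precursors, at least 3 positions, the most and least abundant member of each group, and groups shown as sequences. Where the rule named many, a part is printed. OsmiR-75, OsmiR-113, OsmiR-143, OsmiR-56, OsmiR-116, OsmiR-177, OsmiR-164, OsmiR-62, OsmiR-114 and OsmiR-220 were chosen after their values were seen, beside the rule. Groups were joined by shared runs of 12 bases (mature) and 20 bases (precursor, either strand). The limits were tried on simulated counts with counting error alone, so that check does not cover PCR copies or biological spread. The study's RT-PCR measurements were not analysed here. Alternatives were other denominators, depth filters, stricter calls, 1 added read, other runs, all precursors and RNAfold energies. Scaling factors came from edgeR 4.0.16 and DESeq2 1.42.0 under R 4.3.3, folds from RNAfold 2.7.2, limits from scipy 1.17.1, and the rest from Python 3.11.15 with pandas 2.3.3, numpy 2.4.6, networkx 3.6.1 and matplotlib 3.10.9.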

Additional observations from a re-analysis of the deposited data

How the results depend on the processing

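No paired analysis was possible because each time point has 1 library. The values below are for 24 over 0, 12 over 0 and 24 over 12 HAI in this order. Counts in brackets are those of all named miRNAs under the same setting, of 289 unless another total is given. Counts not given stayed within 1.5 times, and medians and sums not given kept their direction. With summed miRNA reads as the denominator, the members over 2 numbered 10, 5 and 8 (49, 40 and 28). Those under 0.5 numbered 11 and 7 (33 and 20) in the first 2 pairs. The median log2 ratios of the members were -0.29, -0.21 and -0.060, and the log2 ratios of the summed reads -0.29, -0.26 and -0.028. With TMM factors, 13 and 7 members were over 2 (62 and 42) and 8 and 7 under 0.5 (24 and 17) in the first 2 pairs. The medians were -0.092, -0.086 and 0.0061 and the sums -0.099, -0.14 and 0.038. With DESeq2 size factors, 14 and 6 were over 2 (63 and 41) and 8 and 7 under 0.5 (23 and 17) in the first 2 pairs. The medians were -0.082, -0.13 and 0.060 and the sums -0.089, -0.18 and 0.092. These 3 denominators are computed from the named miRNAs, so a change shared by most of them is taken out. Whether the miRNAs rose or the other mapped reads fell was not tested. With reads of 18 to 30 nt the sums were 0.83 and 0.61 in the first 2 pairs. Under the summed miRNA reads OsmiR-217, OsmiR-187 and OsmiR-123, over 2 in TPM, had log2 ratios of 24 to 0 HAI of -0.18, -0.14 and -0.18. Of the 19 members named for abundance or ratio, all above 0 in TPM, 11 were under 0 with summed miRNA reads, 8 with TMM and 8 with DESeq2 factors, down to -1.10 for OsmiR-146.

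With at least 100 reads, 14, 6 and 2 members of 38 tested were over 2 (66, 46 and 12 of 141). Under 0.5 were 0, 0 and 0 members (4, 2 and 3 of 141). The medians were 0.77 for 24 over 0 HAI and 0.014 for 24 over 12 HAI. With at least 10 reads in a library, of 85 members 0 were under 0.5 between 12 and 0 HAI (2 of 251). Between 24 and 12 HAI 9 were over 2 (28 of 251). With limits past 2-fold, 8, 0 and 1 were higher (59, 36 and 12) and 0, 0 and 0 lower (3, 2 and 4). Past 3-fold, 21, 10 and 5 were higher (85, 55 and 18) and 0, 1 and 2 lower (4, 3 and 7). With 1 read added, 0 were under 0.5 between 24 and 0 HAI (5). Joining by runs of 14 bases left 3 groups of at least 3 members, against 6. Of the 98 members, 60 had under 100 reads.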
